A study of Mus musculus with 12 samples.

Results

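The genes of glucose breakdown, glucose synthesis and the pentose phosphate route were examined in RNA-seq of 3 mouse melanocytic cell lines. The members were the 39 genes of a list that was chosen with earlier results of these data known. They were taken wherever the deposited gene symbol matched, and they filled 40 of the 34513 rows because Aldoa is listed under 2 identifiers. Melan-A is a non-tumorigenic melanocyte line, B16F0 is a tumorigenic melanoma line and B16F10 is its metastatic derivative. Each line was cultured untreated or with SX-682, an antagonist of the chemokine receptors CXCR1 and CXCR2, which gave 6 groups of 2 libraries. The dose and time of SX-682 in these cultures are not given in the sources used here, and the labels call the controls untreated without naming a vehicle. Each line is a single cultured line, and nothing states that the 2 libraries of a group came from separate cultures, so the p-values measure the spread between these libraries, which may be technical. The study asked which transcriptional changes SX-682 causes in the cells themselves, away from the other cell types of a tumor.

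In glycolysis, glucose enters through the SLC2A transporters, is trapped by hexokinase, is phosphorylated a second time by phosphofructokinase and is split by aldolase into trioses that the lower enzymes turn into pyruvate. Lactate dehydrogenase reduces pyruvate to lactate, which leaves the cell through the SLC16A monocarboxylate transporters, whereas the pyruvate dehydrogenase complex sends pyruvate into mitochondria unless pyruvate dehydrogenase kinases switch it off. Gluconeogenesis runs the other way through a few enzymes of its own, and the pentose phosphate route diverts glucose 6-phosphate to NADPH and ribose. Melanoma cells, like many tumor cells, are known for high lactate production in the presence of oxygen, and hypoxia-inducible factor 1 and MYC are known activators of many of these genes, while ATF4 is a known activator of Pck2.

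The gene counts of a library summed to 48876982 at the lowest and 85322092 at the highest. Levels are given as CPM, counts relative to the TMM-scaled library total, and a floor of 3 counts was worth 0.0330 to 0.0623 CPM, counting error only. Replicates were not the same library deposited again, since within each group they differed beyond counting noise (chi-square per gene 2.87 to 5.25), and each of the 12 libraries lay closest to its own replicate. All 40 rows passed edgeR's expression filter, which kept 18338 genes. The melanocyte marker list (8 genes) summed to 1344 and 1374 CPM in untreated Melan-A and to 18584 to 24471 CPM in the untreated B16 lines. In Melan-A, Sox10 stood at 655 and 685 CPM and Dct at 358 and 351 CPM, but Tyr reached only 0.892 and 0.760 CPM and Pmel 7.53 and 8.70 CPM, so the labelled melanocyte identity rested on part of its markers. With SX-682 that sum was 1347 and 1355 CPM in Melan-A, 15960.5 and 15772 CPM in B16F0 and 14947 and 15188 CPM in B16F10, and its part in the changes below was not tested. The leukocyte list (4 genes) summed to 23.1 and 23.2 CPM in untreated Melan-A, 48.8 and 49.8 CPM with SX-682 and 10.3 to 26.9 CPM in the B16 libraries, with Cd68 at 15.9 and 16.1 CPM and Lyz2 at 6.93 and 7.07 CPM in untreated Melan-A and at 43.9 and 45.3 CPM and 4.73 and 4.38 CPM with SX-682. The defining markers Ptprc and Cd3e were at most 0.255 and 0.0116 CPM in every library, and the part of this list in the changes was not tested. The markers of the other lists (4 keratinocyte, 4 fibroblast, 3 endothelial and 4 muscle or liver genes) summed to at most 3.39 CPM outside the fibroblast list, which summed to 8.42 to 53.8 CPM.

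SX-682 raised many glycolytic genes in Melan-A and lowered several of the same genes in the B16 lines. In Melan-A 32 of the 40 rows were called (48.2% of all tested genes), and 26 rose and 6 fell, where 23.4% of all tested genes rose and 24.7% fell (edgeR's quasi-likelihood test, Benjamini-Hochberg adjusted p under 0.05). In B16F0 30 were called (50.1% of all genes), of which 13 rose and 17 fell (25.1% and 25% of all genes), and in B16F10 34 were called (50.8%), of which 18 rose and 16 fell (25.5% and 25.3%). Changes of at least 1 on the log2 scale were fewer, with 4 members in Melan-A, 3 in B16F0, and 5 for B16F10, against 5.5%, 7.83% and 8.18% of all genes. The median log2 fold change of the members was 0.30 for Melan-A, -0.027 for B16F0 and 0.054 for B16F10, against 0 for all tested genes in each line. Genes called in opposite directions in 2 lines numbered 16 of 40, against 9.59% of all genes. Of these, 9 rose in Melan-A and fell in both B16 lines, against 1.42% of all genes: Slc2a1, Hk2, Tpi1, Pgk1, Pgam1, Eno1, Pkm, Ldha and Slc16a1. These 9 lie at steps from glucose uptake to lactate export, but not at all of them. Gpi1, Pfkl, Pfkm, Pfkp, Aldoa and Gapdh did not hold this pattern, and Aldoa rose in all 3 lines. Most of the opposite changes were small. With a limit of 0.5 on the log2 scale in each line, 1 of the 16 and 1 of the 9 were left, in both cases Hk2. The shares of all tested genes at that limit were not counted. The reverse pattern was held by 0 members and by 1.24% of all genes, and 2 members, Pcx and Pgd, were raised in both B16 lines but not in Melan-A (5.41% of all genes). A change that differed among the 3 lines by the F-test of the interaction was found for 34 of 40 rows, against 47.4% of all genes. CPM are relative to all counted reads, and in such bulk samples less RNA of a gene per cell and fewer cells expressing it cannot be told apart.

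Abundant genes are called more often, and the members were abundant, with a median of the mean level of 146 CPM against 11.9 CPM over all tested genes. Among the 2397 tested genes with a mean of at least 100 CPM, 81.1% were called in Melan-A, 32.3% rose there, 20.1% were called in opposite directions in 2 lines and 3.63% rose in Melan-A and fell in both B16 lines. Of the 22 members at that level, 20 were called in Melan-A, 17 rose there, 14 had opposite calls and 8 held the Melan-A-up, B16-down pattern. In B16F0, 17 of the 22 were called, below the 81.1% of these abundant genes, and in B16F10, 21 of 22, beside 83.4%, and all 22 differed among lines, beside 85.7%. The excess of called members over all genes in B16F0 was thus not seen at this abundance. The count of members lowered in Melan-A was the least stable of these, at 3 without either SX-682 library, 2 without control replicate 1 and 5 without control replicate 2.

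**Figure D1:**
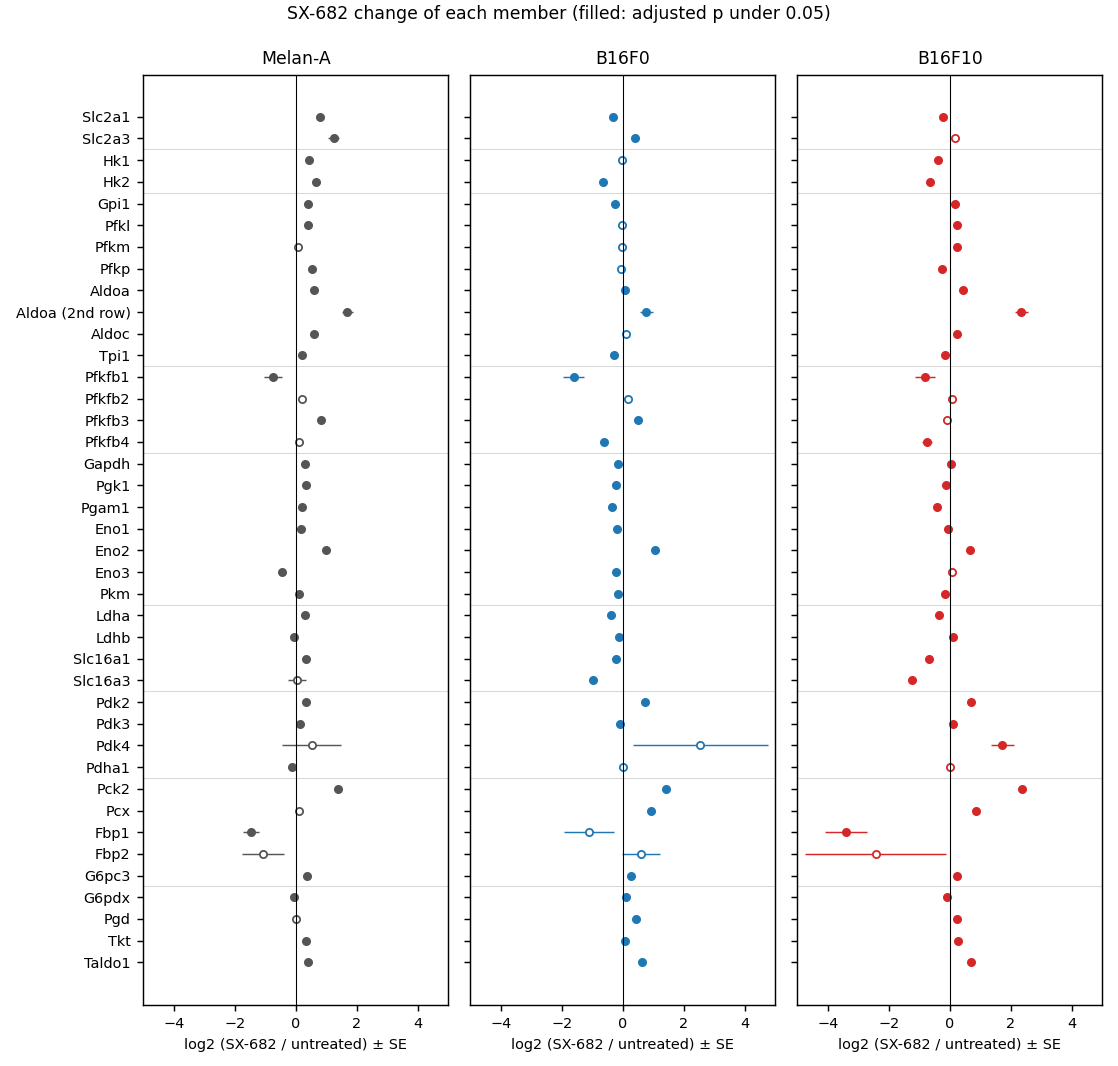
Log2 fold change of SX-682 against untreated for each of the 40 rows (vertical axis, grouped by pathway step) in Melan-A, B16F0 and B16F10, with standard errors; filled points passed the adjusted threshold of 0.05. Most glycolytic rows from Slc2a1 to Ldha sit right of 0 in Melan-A and at or left of 0 in B16F0, Pck2 sits right of 0 in all 3 lines, and the wide bars (Pdk4, Fbp1 and Fbp2) rest on few counts.

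Untreated, 33 rows were called between B16F0 and Melan-A, 38 between B16F10 and Melan-A and 36 between the B16 lines (75.9%, 74.2% and 62% of all tested genes). Of these, 22 rows were higher and 11 lower in B16F0 than in Melan-A (35.3% and 40.6% of all tested genes), and 21 were higher and 17 lower in B16F10 than in Melan-A (33.4% and 40.8%). Higher in both B16 lines were 18 of 40 (24.3% of all genes), among them 6 of 7 lower glycolytic genes and all 4 pentose phosphate genes (Eno3 in B16F10 turned to -0.0337 with library totals in place of TMM), and lower in both were 9 (30.5%). B16F10 lay below B16F0 in 25 rows and above it in 11 (31.2% and 30.8% of all genes). Differences of at least 2 on the log2 scale were found for 4 members between B16F0 and Melan-A, 6 between B16F10 and Melan-A and 4 between the B16 lines, against 23.4%, 23% and 11.9% of all genes. Across all tested genes the median difference was -0.060 for B16F0 and -0.10 for B16F10 against Melan-A, and the members' medians were 0.15 and 0.17. Per length, as reads per kilobase on the CPM scale (RPKM), Gapdh was at 777 and 777 RPKM in untreated Melan-A, 1439 and 1405 in B16F0 and 1261 and 1250.1 in B16F10, the top of the members in both B16 lines. In Melan-A, Tpi1 (778 and 738 RPKM) overlapped it, and in B16F0, Pgk1 came next (1362 and 1318 RPKM). The share of all counted reads that fell on the 39 genes was 1.72% and 1.7% in untreated Melan-A, 3.03% and 2.97% in B16F0 and 2.33% and 2.31% in B16F10. With SX-682 it was 2.13% and 2.11%, 2.7% and 2.69% and 2.34% and 2.34%, so the treated libraries lay above the untreated ones in Melan-A, below them in B16F0 and just above them in B16F10.

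**Figure D2:**
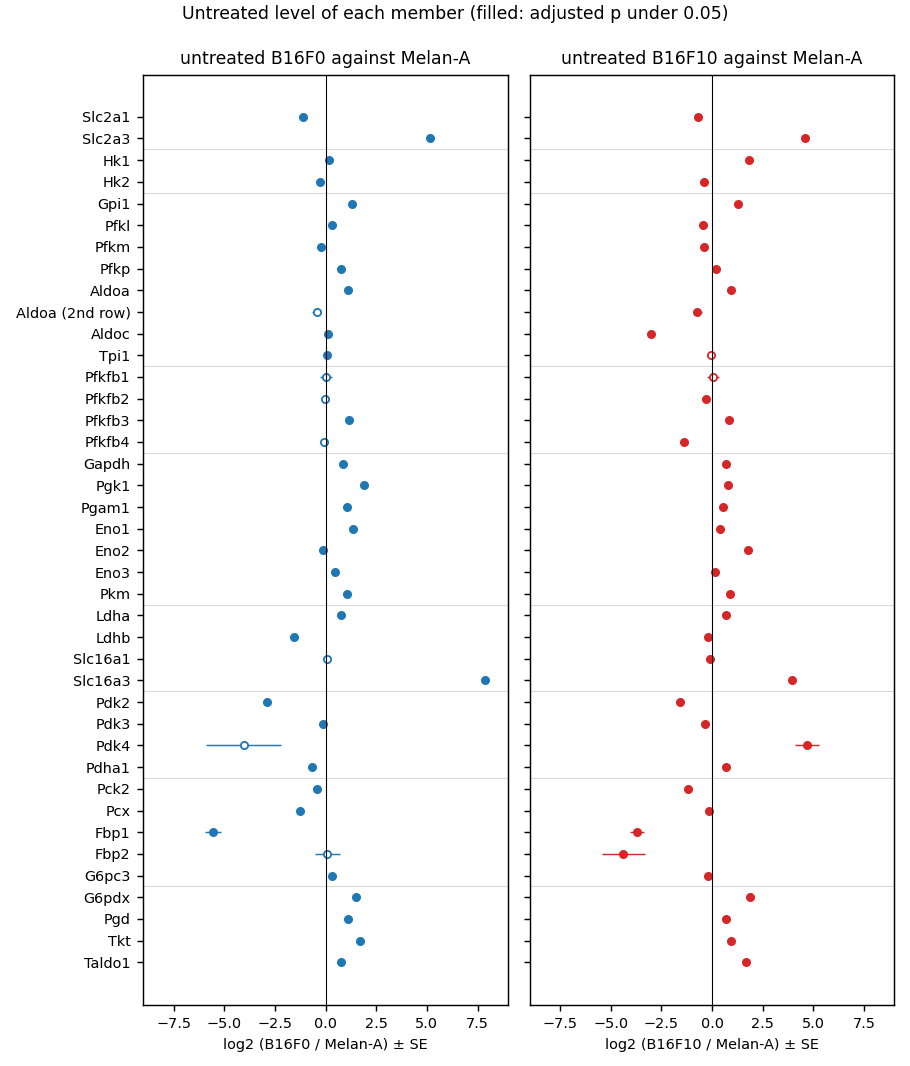
Log2 difference of untreated B16F0 (left) and untreated B16F10 (right) from untreated Melan-A for each of the 40 rows (vertical axis), with standard errors; filled points passed the adjusted threshold of 0.05. Slc2a3 and Slc16a3 stand farthest to the right in B16F0 (5.18 and 7.88), and Slc2a1, Pdk2, Pck2 and Fbp1 stand left of 0 in both lines.

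Promoter sequence was taken from RefSeq on GRCm38.p6, from 250 bases before to 50 bases after each transcript start, and 38 of the 39 members matched with 58 windows. The motifs searched, on both strands, were ACGTG (the core of the hypoxia response element), CACGTG (the E-box, which contains ACGTG on both strands), TGATGNAA (the C/EBP-ATF response element) and TGACNNNGC (the antioxidant response element). ACGTG was found in 25 of 58 member windows and in 19.6% of the 32851 windows of all genes, CACGTG in 9 (7.15%), TGACNNNGC in 7 (12.4%) and TGATGNAA in 1 (3.97%). Counted by gene, ACGTG was in 11 of 16 members with opposite calls, 10 of 22 other members and 21.8% of all genes with a window. The E-box CACGTG went the other way, in 2 of the 16, 7 of the 22 and 8.09% of all genes. TGACNNNGC was in 3 of the 16, 4 of the 22 and 14% of all genes, and TGATGNAA in 0, 1 and 4.51%. For 3 genes, 1 window each is shown, for Hk2 and Ldha, which rose in Melan-A and fell in both B16 lines, and for Pck2, which rose in all 3 lines, with matches in capitals. The Hk2 window (chr6:82774405-82774704, minus strand) holds ACGTG at 2 places, read as CACGT on the printed strand, the first of 2 Ldha windows (chr7:46845554-46845853, plus strand) holds the E-box at 2 places and a further ACGTG, and the Pck2 window (chr14:55540016-55540315, plus strand) holds the 1 TGATGNAA match among the members, on the opposite strand, 103 bases before the start. The second Ldha window (chr7:46846832-46847131), not printed, holds 0 matches to the 4 motifs. The windows of all genes were not matched to those of the members in base composition or expression level. Nor was the number of windows per gene matched, and by gene a match in any window counted. The 38 members had 58 windows, and the 27025 genes had 32851. A match describes the letters and is not evidence of binding.
Hk2: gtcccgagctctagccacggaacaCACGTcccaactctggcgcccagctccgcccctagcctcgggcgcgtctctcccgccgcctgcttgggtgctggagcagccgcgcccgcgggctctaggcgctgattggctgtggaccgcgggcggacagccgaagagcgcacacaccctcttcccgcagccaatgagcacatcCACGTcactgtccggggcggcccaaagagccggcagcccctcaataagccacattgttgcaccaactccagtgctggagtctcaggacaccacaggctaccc
Ldha: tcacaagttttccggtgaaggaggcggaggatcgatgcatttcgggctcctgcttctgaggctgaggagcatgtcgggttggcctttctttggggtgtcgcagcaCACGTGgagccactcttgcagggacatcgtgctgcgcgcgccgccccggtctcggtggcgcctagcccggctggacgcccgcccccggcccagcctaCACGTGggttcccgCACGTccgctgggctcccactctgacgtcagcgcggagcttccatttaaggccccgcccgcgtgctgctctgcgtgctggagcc
Pck2: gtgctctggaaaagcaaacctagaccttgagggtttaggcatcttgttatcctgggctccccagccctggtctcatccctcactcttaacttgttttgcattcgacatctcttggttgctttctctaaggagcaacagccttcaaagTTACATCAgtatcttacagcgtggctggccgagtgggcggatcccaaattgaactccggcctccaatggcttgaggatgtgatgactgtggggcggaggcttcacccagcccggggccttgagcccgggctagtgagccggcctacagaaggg

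Of the 2 glucose transporter members, Slc2a1, the widespread basal transporter GLUT1, had the higher counts (chromosome 4, 119108711 to 119137983, plus strand of GRCm38, as are all gene positions here). Outside the member list, Slc2a6 stood at 18.1 and 16.8 CPM in untreated B16F0 and 35 and 30.7 CPM in untreated B16F10. Slc2a8 was at 17.8 and 18.3 CPM and 18.6 and 18.2 CPM there. Slc2a1 was counted at 164 and 167 CPM in untreated Melan-A and 287 and 289 with SX-682, 77.6 and 76.9 without and 63.4 and 61.3 with it in B16F0, and 101 and 102 without and 86.5 and 89.3 with it in B16F10. The treated libraries lay above the untreated ones in Melan-A and below them in both B16 lines. The log2 fold change was a rise of 0.80 ± 0.0276 (adjusted p = 4.09e-20) in Melan-A, against falls of 0.31 ± 0.032 (adjusted p = 1.89e-09) in B16F0 and 0.21 ± 0.0305 (adjusted p = 5.95e-07) in B16F10. Untreated Melan-A was the highest of the 3 lines, by 1.10 ± 0.0294 (adjusted p = 3.74e-24) over B16F0 and 0.70 ± 0.029 (adjusted p = 2.88e-19) over B16F10 on the log2 scale. Slc2a3, the high-affinity transporter GLUT3, showed the reverse order of lines, at 0.822 and 0.715 CPM in untreated Melan-A and 1.65 and 1.97 with SX-682, 28.6 and 27.1 without and 38 and 34.7 with it in B16F0, and 17.3 and 19.5 without and 22.1 and 19 with it in B16F10. It was nearly absent from Melan-A, and untreated B16F0 exceeded it by 5.18 ± 0.117 (adjusted p = 4.66e-26) and B16F10 by 4.58 ± 0.122 (adjusted p = 3.91e-24). SX-682 raised Slc2a3 by 1.24 ± 0.179 (adjusted p = 8.74e-07) in Melan-A and 0.39 ± 0.0728 (adjusted p = 4.34e-05) in B16F0, while the B16F10 libraries overlapped, with a change of 0.16 ± 0.079 (adjusted p = 0.0921). Per length, Slc2a3 made up 0.242 and 0.207% of the pair in untreated Melan-A, 15.1 and 14.6% in B16F0 and 7.61 and 8.43% in B16F10. With SX-682 its share in B16F0 was 22.5 and 21.5%.

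The hexokinases, which phosphorylate glucose on entry, both rose in Melan-A. Hk2, the inducible isoform common in tumors (chromosome 6, 82725025 to 82774454, minus strand), was counted at 248 and 244 CPM in untreated Melan-A and 384 and 389 with SX-682, 205 and 198 without and 128 and 128 with it in B16F0, and 187 and 188 without and 118 and 121 with it in B16F10. It rose by 0.65 ± 0.025 (adjusted p = 4.76e-19) in Melan-A and fell by 0.66 ± 0.0267 (adjusted p = 1.6e-18) in B16F0 and 0.65 ± 0.0269 (adjusted p = 1.75e-18) in B16F10, a range of 1.31 over the 3 lines. Hk1, the housekeeping isoform, stood at 262 and 259 CPM in untreated Melan-A and 356 and 349 with SX-682, 299 and 294 without and 291 and 295 with it in B16F0, and 925 and 926 without and 713 and 716 with it in B16F10. B16F10 thus held more Hk1 than the other lines at the outset, by 1.83 ± 0.0221 (adjusted p = 8.95e-33) over Melan-A. Hk1 rose by 0.43 ± 0.0219 (adjusted p = 2.78e-16) in Melan-A, fell by 0.37 ± 0.0213 (adjusted p = 3.22e-15) in B16F10 and changed by -0.016 ± 0.0222 (adjusted p = 0.588) in B16F0, where the libraries overlapped. Per length, Hk2 was 57.4 and 57.4% of the pair in untreated Melan-A and 60.7 and 61.5% with SX-682, 49.5 and 49% and then 38.6 and 38.2% in B16F0, and 22.4 and 22.5% and then 19.2 and 19.4% in B16F10.

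**Figure D3:**
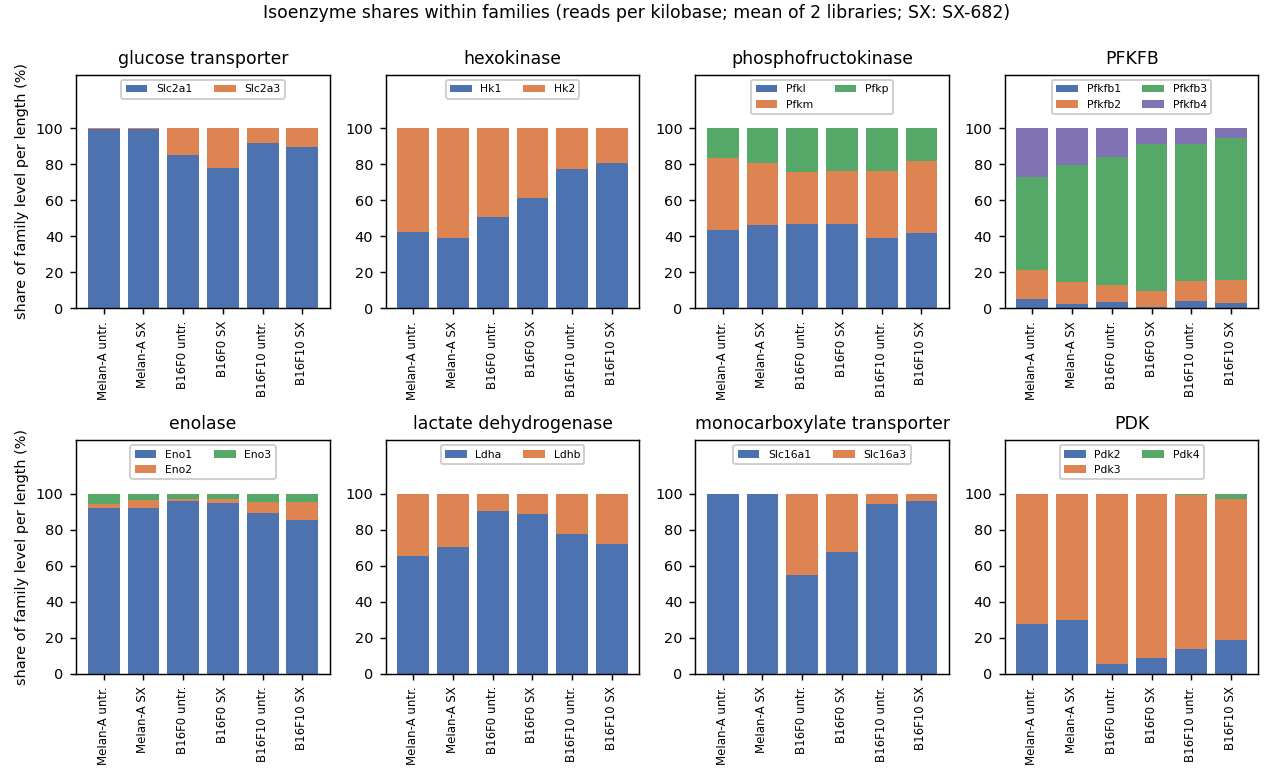
Share of each isoenzyme among the listed members of its family (vertical axis, percent of those members' summed reads per kilobase, mean of 2 libraries) in the 6 groups, untreated and with SX-682. Family genes outside the member list, such as Slc2a6, Slc2a8, Slc16a7 and Pdk1, are left out. Pdk1 stood at 74.8 and 73.4 CPM in untreated Melan-A, above Pdk3 at 63.6 and 64.1 CPM. Hk1 fills most of the hexokinase bar in B16F10, Slc16a3 is visible in the B16 lines and largest in untreated B16F0, and Ldhb is smallest in B16F0.

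In upper glycolysis, 7 of 8 rows rose in Melan-A and 0 fell (23.4% and 24.7% of all tested genes), with Aldoa counted under both identifiers. In B16F0, 2 rose and 2 fell, near the 25.1% and 25% of all genes. In B16F10, 6 rose and 2 fell (25.5% and 25.3%). Of genes with a mean of at least 100 CPM, 32.3% rose and 48.8% fell in Melan-A. Such shares by direction were not counted in the B16 lines. Aldoa, the main aldolase, was raised in all 3 lines. The log2 change was 0.60 in Melan-A, only 0.079 in B16F0, and 0.44 in B16F10, from levels of 1159 and 1163 CPM, 2539 and 2485 CPM and 2195 and 2212 CPM to 1762 and 1762 CPM, 2623 and 2686 CPM and 2945 and 3013 CPM. The second Aldoa row (ENSMUSG00000114515, chromosome 7, 126800790 to 126809108, minus strand) is annotated upstream of the main gene and drew 47 to 322 counts per library. Its level was 1.39 and 1.28 CPM in untreated Melan-A and 4.52 and 4.09 with SX-682, 1 and 0.952 without and 1.67 and 1.66 with it in B16F0, and 0.777 and 0.829 without and 4.5 and 3.66 with it in B16F10. It rose by 1.69 ± 0.186 (adjusted p = 5.94e-09) in Melan-A, 0.77 ± 0.215 (adjusted p = 0.00351) in B16F0 and 2.34 ± 0.209 (adjusted p = 6.43e-11) in B16F10. Aldoc, the brain-type aldolase, was far lower in B16F10, at 6.15 and 7.26 CPM untreated (372 and 464 reads) against 57.1 and 52.6 CPM in Melan-A and 60.6 and 58.3 CPM in B16F0, a difference of -3.03 ± 0.0616 (adjusted p = 3.77e-27) from Melan-A. With SX-682 its libraries were at 81.2 and 83 CPM in Melan-A, 64.4 and 63.8 CPM in B16F0 and 7.92 and 7.78 CPM in B16F10, and the log2 change was 0.58 ± 0.0446 (adjusted p = 3.42e-12), 0.11 ± 0.0464 (adjusted p = 0.0512) and 0.22 ± 0.0826 (adjusted p = 0.0238). The B16F10 call was lost without control replicate 1 (0.11), SX-682 replicate 1 (0.20) or SX-682 replicate 2 (0.24).

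Gpi1, glucose-6-phosphate isomerase, was counted at 382 and 381 CPM in untreated Melan-A and 508 and 502 with SX-682, 933 and 920.2 without and 774 and 769 with it in B16F0, and 916 and 917 without and 1039 and 1044 with it in B16F10. It rose by 0.41 in Melan-A and 0.18 in B16F10 and fell by 0.26 in B16F0, so the B16 lines parted here. Tpi1, triosephosphate isomerase, stood at 2143 and 2031 CPM in untreated Melan-A and 2418 and 2417 with SX-682, 2219 and 2143 without and 1741 and 1828 with it in B16F0, and 2037 and 2031 without and 1780.0 and 1831 with it in B16F10. It rose by 0.21 in Melan-A and fell by 0.29 in B16F0 and 0.17 in B16F10, and its untreated levels differed by at most 0.10 on the log2 scale between lines. The phosphofructokinase subunits split by isoform. Pfkp, the platelet form, was at 252 and 242 CPM in untreated Melan-A and 353 and 353 with SX-682, 416 and 411 without and 401 and 399.7 with it in B16F0, and 282 and 281 without and 234 and 233 with it in B16F10. It rose by 0.51 in Melan-A and fell by 0.27 in B16F10 (adjusted p = 8.52e-11). Pfkl, the liver form, rose by 0.39 in Melan-A and 0.24 in B16F10, and Pfkm, the muscle form, rose in B16F10 by 0.23 with no call in the other lines (adjusted p = 0.0637 and 0.671). In B16F10 the share of Pfkp in the phosphofructokinase reads per length went from 23.4 and 23.6% to 18 and 17.6%, and in Melan-A from 17 and 16.3% to 19.2 and 19.6%. Part of Pfkp (5.58% of its exonic bases) lies opposite Pitrm1, part of Gpi1 (11.5%) opposite Gm26762, and part of Pfkm (10.2%) is shared with Gm26513, and the strand setting of the counting is not given.

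The bifunctional PFKFB enzymes set fructose 2,6-bisphosphate, the main activator of phosphofructokinase, and their isoforms moved apart. Pfkfb3, the form with the strongest kinase activity, was counted at 18.1 and 18.6 CPM in untreated Melan-A and 32.9 and 32.8 with SX-682, 40.7 and 41.7 without and 58.6 and 57.9 with it in B16F0, and 33.3 and 32.3 without and 30.8 and 30.0 with it in B16F10. It rose by 0.84 ± 0.048 (adjusted p = 4.79e-15) in Melan-A and 0.50 ± 0.0445 (adjusted p = 7.65e-11) in B16F0, whereas the change in B16F10 was -0.11 ± 0.0481 (adjusted p = 0.0602). Pfkfb4, known as a hypoxia-induced form, was low throughout, at 6 and 6.4 CPM in untreated Melan-A and 7.14 and 6.23 with SX-682, 5.87 and 5.79 without and 3.66 and 4.01 with it in B16F0, and 2.3 and 2.36 without and 1.5 and 1.25 with it in B16F10. It fell by 0.61 ± 0.132 (adjusted p = 0.000258) in B16F0 and 0.76 ± 0.169 (adjusted p = 0.00032) in B16F10, and the Melan-A libraries overlapped. Pfkfb1, the liver and muscle form, was scarce, with 15 to 93 counts per library, at 1.08 and 0.859 CPM in untreated Melan-A and 0.617 and 0.533 with SX-682, 1 and 0.982 without and 0.334 and 0.312 with it in B16F0, and 1.06 and 0.923 without and 0.627 and 0.496 with it in B16F10. It was the 1 member lowered in all 3 lines (11.7% of all genes), by 0.75 ± 0.304 (adjusted p = 0.0427), 1.61 ± 0.345 (adjusted p = 0.000231) and 0.82 ± 0.32 (adjusted p = 0.0339), and the calls in Melan-A and B16F10 were each lost with DESeq2, without a filter and when certain single libraries were left out. Leaving out Melan-A control replicate 1 gave a fall of 0.57 with an adjusted p of 0.26 there, and leaving out SX-682 replicate 1 or 2 gave falls of 0.85 and 0.64 with adjusted p of 0.101 and 0.228. In B16F10, leaving out control replicate 1 gave a fall of 0.71 with an adjusted p of 0.141, and leaving out SX-682 replicate 2 a fall of 0.66 with an adjusted p of 0.177. Pfkfb2, the heart form, was not called in any line, with levels between 4.27 and 6.46 CPM, and shares 17.4% of its exonic bases with Gm29427. Pfkfb3 made up 51.2 and 52.3% of the 4 genes' reads per length in untreated Melan-A and 64.1 and 65.3% with SX-682, and 71.1 and 71.6% and then 82 and 81.9% in B16F0.

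In lower glycolysis, 5 of the 7 genes had opposite calls, against 9.59% of all tested genes and 20.1% of those with a mean of at least 100 CPM. Gapdh, glyceraldehyde-3-phosphate dehydrogenase and a frequent reference gene, was counted at 3211 and 3211 CPM in untreated Melan-A and 3935 and 3887 with SX-682, 5949 and 5807 without and 5339.9 and 5277 with it in B16F0, and 5212 and 5167 without and 5304 and 5343 with it in B16F10. It rose by 0.28 ± 0.0151 (adjusted p = 8.76e-16) in Melan-A and fell by 0.15 ± 0.015 (adjusted p = 1.45e-09) in B16F0. The rise in B16F10, of 0.037 ± 0.015 (adjusted p = 0.0414), was lost without any 1 of its 4 libraries, with DESeq2, with RLE scaling and with either other filter. Pgk1, phosphoglycerate kinase, stood at 829 and 813 CPM in untreated Melan-A and 1027 and 1019.8 with SX-682, 3055 and 2957 without and 2605 and 2560.4 with it in B16F0, and 1441 and 1405 without and 1297 and 1323 with it in B16F10. Its untreated level was far higher in B16F0, by 1.87 ± 0.0201 (adjusted p = 3.51e-34) over Melan-A, and SX-682 brought a rise of 0.32 in Melan-A and falls of 0.22 and 0.12 in B16F0 and B16F10. Pgam1, phosphoglycerate mutase, was at 250.1 and 262 CPM in untreated Melan-A and 299.9 and 294 with SX-682, 530.4 and 542 without and 409.5 and 426 with it in B16F0, and 367 and 374 without and 276 and 273 with it in B16F10. It rose by 0.21 in Melan-A and fell by 0.36 in B16F0 and 0.43 in B16F10. Pkm, the pyruvate kinase gene whose splice forms the gene counts do not separate and which shares 15.3% of its exonic bases with Gm49759, was at 2508 and 2415 CPM in untreated Melan-A and 2671 and 2664 with SX-682, 5139 and 4977 without and 4589.5 and 4542 with it in B16F0, and 4609.7 and 4558 without and 4130.2 and 4140.4 with it in B16F10. The change was small but beyond the replicate spread in each line, a rise of 0.12 in Melan-A and falls of 0.15 and 0.15 in B16F0 and B16F10. The adjusted p-values of Pgk1, Pgam1 and Pkm lay between 1.13e-14 and 5.72e-06.

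The 3 enolases, which make phosphoenolpyruvate, went separate ways. Eno1, the ubiquitous form, was counted at 1689 and 1692 CPM in untreated Melan-A and 1899 and 1909 with SX-682, 4422 and 4364 without and 3868 and 3899 with it in B16F0, and 2219.6 and 2208 without and 2083 and 2139 with it in B16F10. It rose by 0.17 in Melan-A while the B16 lines had falls of 0.18 (B16F0) and 0.069 (B16F10, adjusted p = 0.000748). Eno2, the neuronal form (chromosome 6, 124760053 to 124769673, minus strand), was at 38 and 38 CPM in untreated Melan-A and 77.8 and 74.2 with SX-682, 34.9 and 34.4 without and 71.9 and 71.7 with it in B16F0, and 129 and 131 without and 204 and 208 with it in B16F10. It rose in all 3 lines, by 0.999 ± 0.0342 (adjusted p = 3.41e-20), 1.05 ± 0.0362 (adjusted p = 2.59e-20) and 0.66 ± 0.0308 (adjusted p = 2.17e-17), and every treated library lay above both untreated libraries of its line. Its untreated level was higher in B16F10, by 1.90 ± 0.0347 (adjusted p = 1.03e-27) over B16F0. Eno3, the muscle form, fell by 0.47 in Melan-A and 0.24 in B16F0 and overlapped in B16F10 (adjusted p = 0.247). Per length, Eno1 still held 85.4 and 86% of the family in treated B16F10 and Eno2 9.56 and 9.54%, from 5.94 and 6.06% untreated. Copies of these genes were scarce in the counts. Eno1b reached 5.44 CPM and Aldoart1 0.803 CPM, and 2 of the 5 listed copies in the table passed the filter. How the authors treated reads that match several places is not given in the sources used here, so reads of near-identical copies stay uncertain.

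Of the 4 lactate genes, 4 fell in B16F0 and 3 in B16F10, where 25% and 25.3% of all genes fell. In Melan-A, 2 rose and 1 fell (23.4% and 24.7% of all genes). Ldhb was the exception in B16F10, where it rose. Of genes with a mean of at least 100 CPM, 81.1% were called in B16F0 and 83.4% in B16F10, in either direction. The part of those that fell was not counted. Ldha, the lactate dehydrogenase subunit that favors lactate formation (chromosome 7, 46841475 to 46855627, plus strand), was counted at 1146 and 1181 CPM in untreated Melan-A and 1436 and 1404 with SX-682, 2014 and 1966 without and 1527 and 1531 with it in B16F0, and 1890.1 and 1881 without and 1475 and 1492 with it in B16F10. It rose by 0.29 ± 0.019 (adjusted p = 1.39e-13) in Melan-A and fell by 0.38 ± 0.019 (adjusted p = 1.87e-16) in B16F0 and 0.35 ± 0.0191 (adjusted p = 1.32e-15) in B16F10. Ldhb, the subunit that favors pyruvate, stood at 296 and 293 CPM in untreated Melan-A and 279 and 282 with SX-682, 101 and 99.2 without and 92.5 and 91.9 with it in B16F0, and 256 and 252 without and 271 and 275 with it in B16F10. It moved little, by -0.073 ± 0.0241 (adjusted p = 0.0128), -0.11 ± 0.0272 (adjusted p = 0.000716) and 0.10 ± 0.0246 (adjusted p = 0.000729), and its call in Melan-A was lost without control replicate 1 or either SX-682 library. Per length, Ldhb made up 35.3 and 34.4% of the pair in untreated Melan-A and 29.1 and 29.7% with SX-682, but 22.2 and 22% and then 27.9 and 28% in B16F10.

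Slc16a1, the monocarboxylate transporter MCT1 (chromosome 3, 104638668 to 104658462, plus strand), differed by at most 0.18 on the log2 scale between the untreated lines. It was counted at 106 and 103 CPM in untreated Melan-A and 130.2 and 132 with SX-682, 109 and 109 without and 95.4 and 93.6 with it in B16F0, and 97 and 96.8 without and 59.2 and 60.3 with it in B16F10. It rose by 0.32 ± 0.0296 (adjusted p = 1.62e-10) in Melan-A and fell by 0.21 ± 0.0309 (adjusted p = 1.06e-06) in B16F0 and 0.70 ± 0.0325 (adjusted p = 2.59e-17) in B16F10. Slc16a3, the lactate exporter MCT4 of highly glycolytic cells, set the untreated lines far apart. Its levels were 0.568 and 0.352 CPM in untreated Melan-A and 0.407 and 0.52 with SX-682, 107 and 109 without and 56.1 and 53.4 with it in B16F0, and 7.23 and 7.01 without and 2.39 and 3.61 with it in B16F10, the Melan-A values resting on 29 to 49 counts per library. Untreated B16F0 exceeded Melan-A by 7.88 ± 0.11 (adjusted p = 2.95e-31) on the log2 scale, and B16F10 lay 3.92 ± 0.0765 (adjusted p = 4.91e-27) below B16F0. With SX-682 it fell by 0.98 ± 0.0606 (adjusted p = 2.66e-14) in B16F0 and 1.25 ± 0.119 (adjusted p = 2.69e-10) in B16F10, and the Melan-A libraries overlapped. Slc16a3 made up 44.8 and 45.3% of the pair's reads per length in untreated B16F0 and 32.9 and 32.2% with SX-682.

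**Figure D4:**
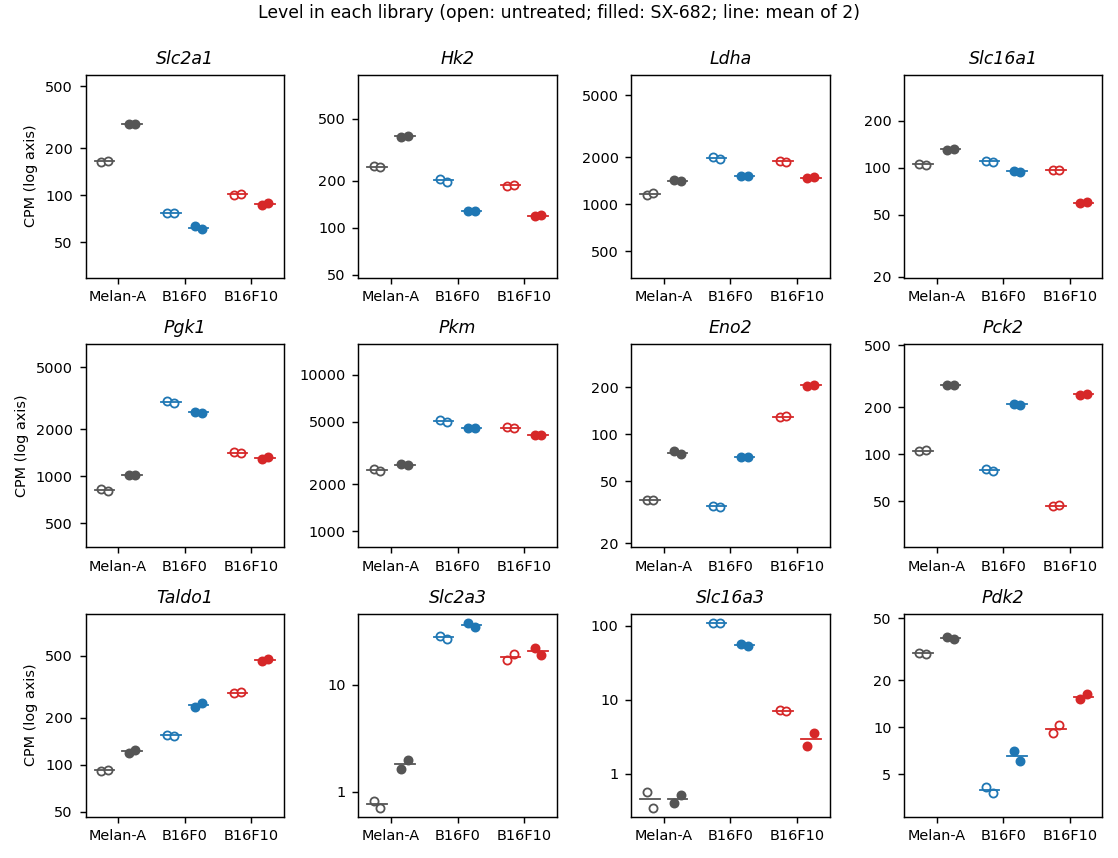
Level of 12 members in each of the 12 libraries (vertical axis, CPM on a log axis that is shared by the 3 lines), untreated as open and SX-682 as filled points, with the mean of the 2 libraries as a line. Slc2a1, Hk2, Ldha, Slc16a1, Pgk1 and Pkm go up in Melan-A and down in both B16 lines, whereas Eno2, Pck2, Taldo1 and Pdk2 go up in all 3.

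At the entry of pyruvate into mitochondria, Pdk2, a kinase that inactivates pyruvate dehydrogenase, was counted at 29.7 and 29.6 CPM in untreated Melan-A and 37.6 and 36.8 with SX-682, 4.15 and 3.79 without and 7.06 and 6.04 with it in B16F0, and 9.21 and 10.4 without and 15.2 and 16.3 with it in B16F10. It rose in all 3 lines, by 0.33 ± 0.063 (adjusted p = 6.18e-05), 0.73 ± 0.0999 (adjusted p = 3.27e-07) and 0.68 ± 0.0782 (adjusted p = 1.05e-08). Its untreated level was lower in both B16 lines, by 2.90 ± 0.0814 (adjusted p = 1.34e-23) in B16F0 and 1.60 ± 0.0725 (adjusted p = 2.66e-18) in B16F10. Pdk4, the starvation-induced kinase, had few reads, with 1 and 4 in untreated Melan-A, 0 and 0 in B16F0, and 41 and 55 in B16F10. Untreated B16F10 was at least 36.6-fold higher than untreated B16F0, taking 3 counts over the group as the floor, and 27.4-fold higher than Melan-A (exact 95% counting interval 11.3 to 86.1). With SX-682 the B16F10 libraries held 133 and 170 reads, a rise of 1.72 ± 0.384 (adjusted p = 0.00035), whereas the Melan-A libraries held 5 and 1 and the B16F0 libraries 0 and 1. Pdk3 was at 63.6 and 64.1 CPM in untreated Melan-A and 70.7 and 71.2 with SX-682, 58 and 59.4 without and 54.4 and 55.8 with it in B16F0, and 51.1 and 49.4 without and 54.1 and 54 with it in B16F10. Its changes were small, 0.15 ± 0.0356 (adjusted p = 0.000664), -0.093 ± 0.0378 (adjusted p = 0.0421) and 0.11 ± 0.0386 (adjusted p = 0.023), and the call in B16F0 was lost without any 1 of its libraries, that in B16F10 without control replicate 2 or either SX-682 library, and both were lost with DESeq2 and without a filter. Pdha1, the catalytic subunit of the complex, fell by 0.13 in Melan-A (a call lost without control replicate 1), was not called in the B16 lines, and shares 16.1% of its exonic bases with Map3k15 on the other strand.

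The gluconeogenic genes split, with Pck2 and G6pc3 raised in all 3 lines and Fbp1 lowered in Melan-A and B16F10. Pck2, mitochondrial phosphoenolpyruvate carboxykinase, whose promoter window is shown above, was counted at 105 and 106 CPM in untreated Melan-A and 276 and 277 with SX-682, 80.1 and 77.8 without and 211 and 206 with it in B16F0, and 46.5 and 47 without and 239 and 243 with it in B16F10. All treated libraries, from 206 to 277 CPM, lay above all untreated ones, from 46.5 to 106 CPM, whatever the line. The log2 change was 1.39 ± 0.0272 (adjusted p = 8.84e-26) in Melan-A, 1.40 ± 0.0285 (adjusted p = 7.87e-26) for B16F0 and 2.37 ± 0.0303 (adjusted p = 7.01e-31) for B16F10, and it differed among the lines (F-test, adjusted p = 2.1e-18). Untreated B16F10 was lowest, by 1.17 ± 0.0305 (adjusted p = 2e-24) under Melan-A and 0.76 ± 0.0314 (adjusted p = 6.51e-19) under B16F0. Pcx, pyruvate carboxylase, stood at 24.5 and 23.4 CPM in untreated Melan-A and 25 and 26.3 with SX-682, 9.34 and 10.8 without and 18.6 and 19.3 with it in B16F0, and 20.7 and 21.8 without and 37.6 and 39.2 with it in B16F10. It rose by 0.91 ± 0.0711 (adjusted p = 4.49e-12) in B16F0 and 0.85 ± 0.0617 (adjusted p = 6.92e-13) in B16F10, and the change in Melan-A was 0.10 ± 0.0601 (adjusted p = 0.183). G6pc3, the widely expressed glucose-6-phosphatase, rose in all 3 lines, by 0.37, 0.27 and 0.24.

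Fbp1, fructose-1,6-bisphosphatase, went the other way. Its reads numbered 334 and 321 in untreated Melan-A against 103 and 91 with SX-682, 9 and 2 against 3 and 1 in B16F0, and 20 and 15 against 1 and 2 in B16F10. It fell by 1.48 ± 0.263 (adjusted p = 2.21e-05) in Melan-A. In B16F10 the untreated level was 11.2-fold the treated one by counts (exact 95% interval 3.52 to 56.8, adjusted p of the fit = 0.000108), and in B16F0 the ratio was 2.21 (0.654 to 9.50), with adjusted p = 0.289. Untreated Melan-A exceeded untreated B16F0 47.8-fold (26.5 to 96.2). Fbp2, the muscle form, had 23 and 13 reads in untreated Melan-A, 6 and 8 with SX-682, 18 and 13 against 23 and 15 in B16F0, and 0 and 1 against 0 and 0 in B16F10. No change of Fbp2 passed the test in any line at these counts. Its untreated level in Melan-A was 25.3-fold that in B16F10, with an interval from 4.26 to 1026. The liver enzymes Pck1 and G6pc, which are not members, were at or under 0.0561 CPM in every library.

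Of the 4 pentose phosphate genes, 2 rose and 1 fell in Melan-A (23.4% and 24.7% of all tested genes). In B16F0, 4 rose (25.1%), and in B16F10, 3 rose and 1 fell (25.5% and 25.3%). All 4 were higher in both untreated B16 lines than in Melan-A (24.3% of all tested genes). Abundant genes were called more often, at 81.1% in B16F0 and 83.4% in B16F10 with SX-682 for a mean of at least 100 CPM. The part of those that rose was not counted. Taldo1, transaldolase of the non-oxidative branch, was counted at 91.1 and 93 CPM in untreated Melan-A and 119 and 125 with SX-682, 156 and 153 without and 234 and 247 with it in B16F0, and 287 and 291 without and 461 and 472 with it in B16F10. It rose in all 3 lines, by 0.41 ± 0.0297 (adjusted p = 1.21e-12), 0.64 ± 0.0288 (adjusted p = 1.76e-17) and 0.69 ± 0.0277 (adjusted p = 7.19e-19). Tkt, transketolase of the same branch, rose by 0.34, 0.078 and 0.25, and the rise in B16F0 was lost without control replicate 2 or SX-682 replicate 2. G6pdx, glucose-6-phosphate dehydrogenase, the first and rate-limiting enzyme of the oxidative branch, stood at 87.5 and 87.3 CPM in untreated Melan-A and 82.8 and 83.2 with SX-682, 246 and 242 without and 266 and 262 with it in B16F0, and 319.5 and 316 without and 292 and 300.4 with it in B16F10. Its changes were small, -0.074 ± 0.0272 (adjusted p = 0.0245), 0.11 ± 0.025 (adjusted p = 0.0003) and -0.10 ± 0.0248 (adjusted p = 0.000959), and the call in Melan-A was lost without any 1 of its libraries, without a filter and in a separate fit of the line. G6pdx shares 13.6% of its exonic bases with Ikbkg on the other strand. Pgd, the next oxidative enzyme, rose by 0.44 in B16F0 and 0.24 in B16F10 and was not called in Melan-A (adjusted p = 0.953). Counting all roles, 8 rows rose in all 3 lines (11.3% of all genes), namely both Aldoa rows, Eno2, Pdk2, Pck2, G6pc3, Tkt and Taldo1.

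Summed by step, the share of all counted reads is a description of 2 libraries per group that follows the most abundant genes of a step. The gluconeogenic genes went from 0.0188% and 0.0191% of reads to 0.0388% and 0.039% in Melan-A, from 0.0143% and 0.0146% to 0.0296% and 0.0286% in B16F0 and from 0.00995% and 0.0102% to 0.0308% and 0.0309% in B16F10. Pck2 gave much of this, with 59.5 and 59% of these reads in untreated Melan-A and 76.7 and 76.5% with SX-682, 55.8 and 53.1% and then 70.4 and 71% in B16F0, and 43.7 and 43.2% and then 73.9 and 74.1% in B16F10. Without Pck2 the sum went from 71.4 and 73.4 CPM to 84 and 85.1 CPM in Melan-A, from 63.5 and 68.7 CPM to 88.8 and 84.2 CPM for B16F0 and from 59.8 and 61.8 CPM to 84.5 and 85.1 CPM for B16F10. The pentose phosphate genes gained 15.8%, 18.1% and 23.9% of their untreated share in the 3 lines. The lactate genes gained 18.6% in Melan-A, while their share dropped by 24.1% in B16F0 and dropped by 18.1% in B16F10. The hexokinases gained 47.6% in Melan-A, dropped by 16.3% in B16F0 and dropped by 24.3% in B16F10. Upper glycolysis gained 31.1% in Melan-A and 13.1% in B16F10 and dropped by 7.47% in B16F0. In each of these sums the treated libraries lay outside the range of the untreated libraries of the same line.

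**Figure D5:**
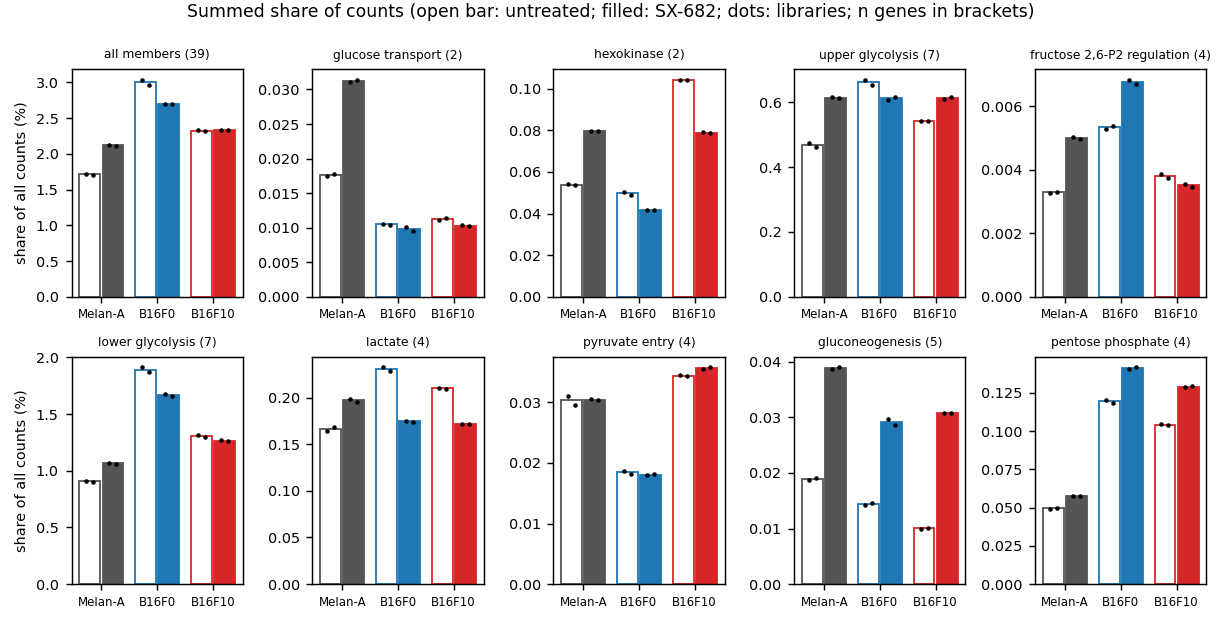
Share of all counted reads (vertical axis, percent) that fell on all members and on each pathway step, untreated as open and SX-682 as filled bars (mean of 2 libraries, dots are the libraries), with the number of genes in brackets. The gluconeogenesis bars, in which Pck2 is most of the reads after SX-682, rise in every line, by 101% to 207% of the untreated share, the pentose phosphate bars rise less, and the lactate and hexokinase bars rise in Melan-A and fall in the B16 lines.

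A list of 50 other genes of these pathways was counted with the same calls, and 36 passed the filter. In Melan-A 14 rose and 10 fell, in B16F0 9 rose and 11 fell, and in B16F10 11 rose and 12 fell. These stood beside 23.4% and 24.7%, 25.1% and 25%, and 25.5% and 25.3% of all tested genes. Genes with opposite calls in 2 lines numbered 4 of 36, near the 9.59% of all genes, and 1 rose in Melan-A and fell in both B16 lines (1.42% of all genes). That gene was Pgm1, phosphoglucomutase, which rose by 0.69 ± 0.0254 (adjusted p = 1.88e-19) in Melan-A and fell by 0.078 in B16F0 and 0.073 in B16F10. Raised in all 3 lines were 5 and lowered in all 3 were 5 of 36, near the 11.3% and 11.7% of all genes. Tigar, a phosphatase that lowers fructose 2,6-bisphosphate, was at 28.9 and 29 CPM in untreated Melan-A and 14.9 and 14.4 with SX-682, 66.2 and 65.6 without and 42.8 and 47.6 with it in B16F0, and 74.9 and 79 without and 34.1 and 36.4 with it in B16F10, and it fell by 0.98 ± 0.0552 (adjusted p = 3.31e-15), 0.55 ± 0.0478 (adjusted p = 4.8e-11) and 1.13 ± 0.0486 (adjusted p = 4.09e-18). Bpgm, bisphosphoglycerate mutase, fell by 0.72, 0.49 and 0.61, and Shpk, sedoheptulokinase, rose by 0.98, 1.08 and 0.83. Pdk1, the pyruvate dehydrogenase kinase outside the member list, was at 74.8 and 73.4 CPM in untreated Melan-A and 131 and 129 with SX-682, 88.3 and 88.4 without and 87.6 and 82.2 with it in B16F0, and 43.2 and 43.4 without and 57 and 60.7 with it in B16F10, and rose by 0.81 in Melan-A and 0.44 in B16F10 with a change of -0.055 ± 0.0362 (adjusted p = 0.225) in B16F0. The genes named here were chosen after their values were seen.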

How the data were processed

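RNA of untreated and SX-682-treated Melan-A (MelanA in the labels), B16F0 and B16F10 cultures was sequenced, 2 libraries per group. The authors deposited whole-number read counts per gene without normalization, with gene lengths and GRCm38 (mm10) coordinates. The submitters' processing notes name cutadapt, STAR and DESeq2 with no version; the counting program, strand setting and treatment of reads matching several places are not given in the sources used here. All 40 rows have the same coordinates in GENCODE M21, which gave strands and overlaps.

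The counts were fitted in edgeR 4.0.16 (R 4.3.3), quasi-likelihood F-test, all 12 libraries in 1 fit, with TMM scaling, edgeR's filter (18338 genes kept), p-values adjusted over all tested genes by Benjamini-Hochberg (threshold 0.05) and fold changes with a prior count of 0.125. Residual degrees of freedom were 6, prior degrees of freedom 21.9 and the biological coefficient of variation 2.78%. An exact permutation of 2 against 2 libraries cannot go below p = 0.333, so the tests borrow the spread of other genes. CPM use the scaled library sizes, and levels compared between genes were divided by gene length. The fit was also run on simulated counts that had a single dispersion for all genes and the same starting levels in all lines. The real counts differ in both, so that run does not vouch for the calls given here. Same-numbered libraries of a line did not deviate together (correlation -0.011, 0.046 and -0.011 in Melan-A, B16F0 and B16F10) and were not treated as pairs.

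The members, gene lists and motifs were chosen with earlier results of these data known. Values in every library are given for members called in at least 2 lines with a change of at least 0.5 on the log2 scale, called in opposite directions, or differing by at least 2 on the log2 scale between untreated lines (31 rows), and for Aldoa, Tigar and Pdk1. The split at 100 CPM was added after seeing the data. Alternatives were DESeq2 1.42.0, RLE scaling, a fit per line, a filter of 10 counts in each library or none, the replicate number as a block, a fold limit of 0.5, a prior count of 2 and each replicate left out, with library totals alone, and every alternative for the counts of opposite calls, added after seeing the data. No reads were counted here, and all 12 count columns were matched to samples by name.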

Additional observations from a re-analysis of the deposited data

Results flagged for a closer look

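The SX-682 change differed between lines for 34 of the 40 rows, by edgeR's F-test of the interaction at an adjusted p under 0.05, against 47.4% of all tested genes and 85.7% of those with a mean of at least 100 CPM. The values below are the range of the log2 fold change over the 3 lines, the highest minus the lowest. Of the glucose transporters, it was 1.11 for Slc2a1 and 1.08 for Slc2a3. For the hexokinases it came to 0.806 for Hk1 and 1.31 for Hk2. In upper glycolysis it was 0.67 for Gpi1, 0.424 for Pfkl, 0.25 for Pfkm, 0.784 for Pfkp, 0.523 for Aldoa, 1.57 for the second Aldoa row, 0.473 for Aldoc and 0.502 for Tpi1. Of the PFKFB genes, the test passed for 2, with 0.95 for Pfkfb3 and 0.868 for Pfkfb4. In lower glycolysis it was 0.431 for Gapdh, 0.537 for Pgk1, 0.647 for Pgam1, 0.349 for Eno1, 0.386 for Eno2, 0.541 for Eno3 and 0.265 for Pkm. The lactate genes had 0.668 for Ldha, 0.218 for Ldhb, 1.02 for Slc16a1 and 1.27 for Slc16a3. At pyruvate entry it was 0.403 for Pdk2, 0.245 for Pdk3 and 0.124 for Pdha1. Of the gluconeogenic genes, the test passed for 2, with 0.977 for Pck2 and 0.814 for Pcx. The pentose phosphate genes had 0.215 for G6pdx, 0.438 for Pgd, 0.26 for Tkt and 0.284 for Taldo1. The 6 rows that did not pass were Pfkfb1, Pfkfb2, Pdk4, Fbp1, Fbp2 and G6pc3, of which Pdk4, Fbp1 and Fbp2 had groups at or near the floor of 3 counts, and a p that misses the threshold does not show equal changes. No explanation of these differences was tested.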

How the results depend on the processing

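Of 240 member changes (40 rows in 6 comparisons), 230 kept their direction and side of the threshold under DESeq2, 230 under RLE scaling, 231 without a filter and 238 with the replicate block, although same-numbered libraries did not deviate together. The direction reversed only with library totals alone, for Tpi1 in untreated B16F0 against Melan-A (-0.0291) and Eno3 in untreated B16F10 against Melan-A (-0.0337). That scaling moved the median of all genes from -0.10 to -0.29 in B16F10 and from -0.060 to -0.15 in B16F0 against Melan-A. A fold limit of 0.5 on the log2 scale left 10 higher and 2 lower in Melan-A, 7 and 4 in B16F0 and 7 and 6 in B16F10. Untreated, it left 6 lower in B16F0 and 8 in B16F10 against Melan-A, and 13 lower in B16F10 against B16F0. The untreated counts of higher members dropped by a smaller part and are left out here. It also left 3 raised in all lines and 19 differing among lines. Of the 16 with opposite calls 1 was left, and of the 9 raised in Melan-A and lowered in both B16 lines 1 was left. The shares of all tested genes at this limit were not counted, so these drops cannot be called particular to the members. Members lowered in Melan-A numbered 3 without a filter, and those lowered in all 3 lines 0 without a filter, with DESeq2 and with the replicate block. Leaving out 1 replicate gave 26 higher and 2 to 5 lower in Melan-A, 12 to 13 and 16 in B16F0, 15 to 17 and 15 to 16 in B16F10, 7 to 10 raised and 0 to 1 lowered in all lines, 33 to 35 differing among lines, 15 to 16 with opposite calls and 9 raised in Melan-A and lowered in both B16 lines. Untreated, it gave 20 to 23 higher and 11 to 12 lower in B16F0 against Melan-A, 20 to 21 and 15 to 18 in B16F10 against Melan-A, and 10 to 11 and 24 to 25 in B16F10 against B16F0. Of the member values refitted so, 41 lost and 6 gained a call and 0 reversed. Depth limits Pdk4, Fbp1, Fbp2 and, in Melan-A, Slc16a3. The cause of these shifts was not tested.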

Other observations

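Known regulators of these pathways were counted beside the members, and all 19 listed genes passed the filter. In Melan-A 15 rose and 3 fell, in B16F0 8 rose and 6 fell, and in B16F10 8 rose and 9 fell, with 7 raised and 2 lowered in all 3 lines and 8 called in opposite directions. Of all tested genes, 23.4% rose and 24.7% fell in Melan-A, 25.1% and 25% in B16F0 and 25.5% and 25.3% in B16F10, 11.3% were raised and 11.7% lowered in all 3 lines and 9.59% had opposite calls. That last share was 20.1% among genes with a mean of at least 100 CPM. Hif1a, the hypoxia-regulated subunit of HIF-1, was at 239.6 and 236 CPM in untreated Melan-A and 448 and 446 with SX-682, 175 and 169.6 without and 217 and 207 with it in B16F0, and 113 and 109.5 without and 133 and 137 with it in B16F10. It rose by 0.91 ± 0.0266 (adjusted p = 8.32e-22) in Melan-A, 0.30 ± 0.0277 (adjusted p = 1.52e-10) in B16F0 and 0.27 ± 0.0292 (adjusted p = 2.4e-09) in B16F10. Myc, a known activator of glycolytic genes, was at 60.1 and 62.3 CPM in untreated Melan-A and 92.8 and 92 with SX-682, 76.7 and 75.4 without and 68.2 and 73.4 with it in B16F0, and 104 and 102 without and 75.7 and 72.5 with it in B16F10, and the treated libraries lay above the untreated ones in Melan-A and below them in both B16 lines. Its log2 change was 0.59 ± 0.0362 (adjusted p = 2.06e-14) in Melan-A, -0.11 ± 0.0376 (adjusted p = 0.0201) in B16F0 and -0.48 ± 0.0369 (adjusted p = 2.69e-12) in B16F10. Mlx, a partner of the glucose-sensing factors, was the other regulator that rose in Melan-A and fell in both B16 lines, by 0.20 against 0.21 and 0.61. That pattern was thus held by 2 of 19 (1.42% of all tested genes). The remaining regulators with opposite calls did not hold it. In Melan-A, B16F0 and B16F10, Ppargc1a changed by 0.91, -0.85 and 0.30, Mlxip by 0.11, 0.36 and -0.12, and Txnip by 0.29, 0.015 and -0.19. Esrra, Ppargc1b and Arrdc4 were the others. Which regulators are named here was not fixed by a rule. Atf4, the amino acid response factor, rose in all 3 lines, by 0.73 ± 0.0236 (adjusted p = 8.11e-21), 1.02 ± 0.0244 (adjusted p = 3.9e-24) and 1.45 ± 0.0245 (adjusted p = 6.26e-28). Whether any of these regulators bears on the member genes was not tested.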
